A study of Mus musculus with 23 samples.

Results

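The clock output factors are genes that carry the timing of the circadian clock to the rest of the liver: the PAR-bZIP activators Dbp, Tef and Hlf, the bZIP repressor Nfil3, the Dec repressors Bhlhe40 and Bhlhe41, and the nuclease-family protein gene Noct (nocturnin). They were taken as the probe sets whose platform annotation gives exactly 1 gene symbol and that symbol is one of these 7. All 7 genes were found, with 8 probe sets of 38385 on the array (24478 with 1 symbol, covering 19147 genes). Bhlhe41 had 2 probe sets, and the brighter by mean log2 stood for the gene. The series holds 23 liver RNA arrays, labelled as 6 female KO, 6 female WT, 6 male KO and 5 male WT, where KO mice lack GPR86 (P2ry13, an ADP receptor of the P2Y family) and WT mice are wild type. The labels give no other allele or agent, and neither strain, age, hour of collection, feeding state nor the deleted stretch of the gene is stated in the sources used here. No source names shared litters or cultures, so the p-values below measure the spread between these arrays.

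In the mammalian clock, the CLOCK and BMAL1 (Arntl) pair binds E-boxes and drives its own repressors of the Per, Cry and Nr1d families, so that transcripts of these genes cycle through the day. Dbp, Tef and Hlf are driven by the same machinery and activate genes with D-boxes, where Nfil3 competes with them and represses. Bhlhe40 and Bhlhe41 bind E-boxes and oppose CLOCK and BMAL1, and Noct, which cycles strongly in mouse liver, removes a phosphate from NADPH and has been tied to lipid handling. In liver the PAR-bZIP factors are known for daily rhythms of detoxification enzymes, and the levels of cycling genes depend on the hour of collection.

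The members differ in which of 3 motifs stand within 250 bases before their starts. These bases were read from a RefSeq table of build GRCm38.p6, which holds 7 such windows for 6 of the members (Tef has 2). Bhlhe40 has no window there. The windows were searched on both strands for the E-box CACGTG, the D-box TTANGTAA and the cyclic AMP response element TGACGTCA. The matches did not overlap one another, and capitals mark them. Tef is shown as a window with an E-box, Hlf as the window with a cyclic AMP element, and Noct, the member with the largest differences between groups, as a window with none of the 3.
Tef, GRCm38.p6 chr15:81802423-81802672, plus strand: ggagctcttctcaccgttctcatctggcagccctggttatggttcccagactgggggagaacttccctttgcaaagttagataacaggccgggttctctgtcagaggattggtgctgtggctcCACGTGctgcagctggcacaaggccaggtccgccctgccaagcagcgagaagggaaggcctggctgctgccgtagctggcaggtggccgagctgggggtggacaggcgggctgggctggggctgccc
Hlf, GRCm38.p6 chr11:90390918-90391167, minus strand: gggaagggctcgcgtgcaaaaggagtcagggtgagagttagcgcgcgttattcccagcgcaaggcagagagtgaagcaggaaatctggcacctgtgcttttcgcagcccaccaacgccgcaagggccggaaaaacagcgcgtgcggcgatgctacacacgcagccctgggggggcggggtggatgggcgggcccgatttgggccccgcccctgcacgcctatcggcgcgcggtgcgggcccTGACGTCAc
Noct, GRCm38.p6 chr3:51224197-51224446, plus strand: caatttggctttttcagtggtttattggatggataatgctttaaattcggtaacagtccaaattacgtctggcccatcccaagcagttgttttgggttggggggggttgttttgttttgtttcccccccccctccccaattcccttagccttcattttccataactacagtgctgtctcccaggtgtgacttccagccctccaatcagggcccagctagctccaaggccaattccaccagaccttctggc
The E-box stood in 3 of the 7 windows, those of Tef (127 and 138 bases before its starts) and of Bhlhe41 (153 bases before), and in 6.02% of all 32851 windows of this length. The cyclic AMP element of Hlf began 9 bases before the start, and 1.55% of all windows hold that motif. No member window held the D-box, which 2.06% of all windows hold. A match describes letters and not binding, and the array's probes are not these regions. Sequence outside the windows was not searched, so a window without a match does not show that a gene lacks the element.

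The labels were checked first. P2ry13 lay between 5.06 and 5.34 (log2 intensity) in the 12 KO arrays and between 5.80 and 6.42 in the 11 WT arrays, and Xist, read as a check of sex, was at least 8.42 in each female array and at most 5.22 in each male one. Of 7 hepatocyte markers listed, 4 were measured, with a mean log2 of 12.62 to 12.94 over all 23 arrays. The 4 probe sets of Y-linked genes read at most 3.69 in female arrays, a level taken here as background. Bhlhe41 lay at or below it in 22 of 23 arrays and Noct in 1, a male WT array, while the other 5 members lay above it in all 23. Background can differ between probe sets: Xist read 4.14 to 5.22 in male arrays, and P2ry13 at least 5.06 in KO arrays. A value above 3.69 thus does not show that a transcript was detected. Values of different probe sets are not comparable as levels, the number of arrays limits the precision, and in whole liver fewer cells of a type and less RNA per cell cannot be told apart.

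Noct differed most between groups. It averaged 6.92 ± 0.86 in female KO livers, 6.16 ± 0.76 in female WT livers, 6.30 ± 0.69 in male KO livers (SD, n = 6 each) and 4.44 ± 0.76 in male WT livers (SD, n = 5), on the log2 intensity scale. Male WT livers were thus the low group, and the other 3 group means lay within 0.77 of each other. Noct passed the limma test between female and male WT livers and the F test over the 4 groups, and Bhlhe40 passed the F test alone. Dbp, Tef, Hlf, Nfil3 and Bhlhe41 passed none of the limma tests.

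**Figure D1:**
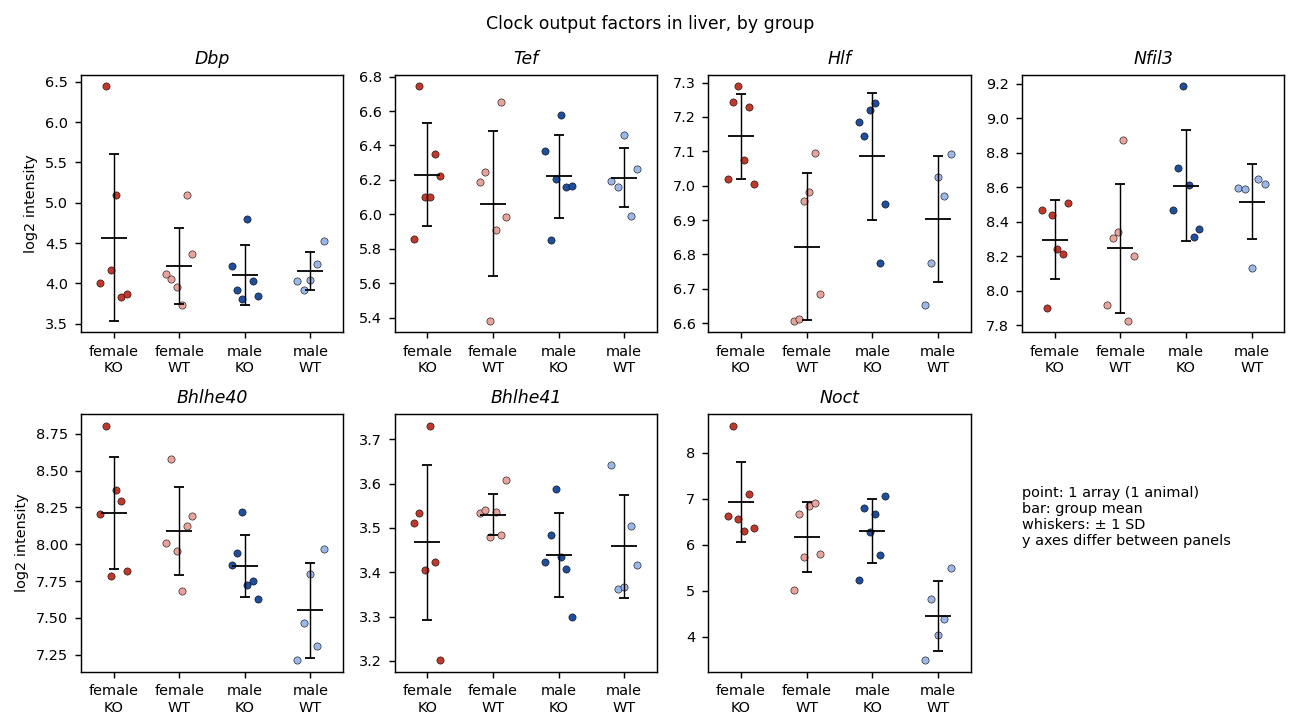
Log2 intensity (y axis, a different range in each panel) of each of the 7 genes in the 4 groups (x axis), with 1 point per array, the group mean as a bar and 1 SD as whiskers. Noct is low in male WT livers, at 3.49 to 5.48, and female KO replicate 2 is the highest array for Dbp at 6.45 and for Noct at 8.59.

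Each comparison was fitted with limma to all 38385 probe sets over the 23 arrays, with 1 mean per group, and an adjusted p (Benjamini-Hochberg over all probe sets) under 0.05 counts as passing. KO against WT called 0 of the 7 members in females, where 0.0547% of all probe sets were called, 0 in males, where 0.0313% were, and 0 averaged over the sexes, where 0.0808% were. At an unadjusted p under 0.05 the members were 1 (Hlf) in females, 1 (Noct) in males and 2 (Hlf and Noct) in the average, against 5.87%, 6.14% and 6.91% of all probe sets. The log2 fold changes of the 7 were positive in 6 members in females, with a median of 0.17, and in 5 members in males, with a median of 0.09, while the medians over all probe sets were -0.0058 and -0.0042. The 7 include Bhlhe41, at background, and the share of all probe sets with a positive value was not counted. Without female KO replicate 2 the female values were -0.02 for Dbp, 0.07 for Tef and 0.005 for Bhlhe40. Hlf then read 0.30, Nfil3 0.13, Noct 0.43 and Bhlhe41 -0.08. The difference of the KO effects between females and males called 0 members, where 0.0104% of all probe sets were called, and 0 members had an unadjusted p under 0.05, against 5.14% of all probe sets. Females against males called 1 of the 7 in WT (Noct, higher in females), where 4.25% of all probe sets were called and 2.54% were called higher in females, and 0 in KO, where 4.85% were. At an unadjusted p under 0.05 there were 2 members in WT and 2 in KO, against 16.5% and 16.2% of all probe sets. The moderated F test over the 4 groups called Noct and Bhlhe40, 2 of the 7, where 6.49% of all probe sets were called, and 3 members at an unadjusted p under 0.05, against 18.4%.

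Male livers gave the largest KO difference among the members, in Noct. Noct, a cycling gene named for its nocturnal expression, lay between 5.22 and 7.05 in the 6 male KO arrays, with a median of 6.47. The male WT arrays, replicates 2 to 6, read 3.49, 4.82, 4.03, 4.39 and 5.48. Of the 6 male KO arrays, 5 lay above every male WT array, and of the 5 WT arrays, 4 lay below every KO array, so that the groups overlapped only through male KO replicate 1 and male WT replicate 6. The fitted difference was 1.85 on the log2 scale (SE 0.40, 95% interval 1.04 to 2.67), 3.62-fold higher in KO, with an unadjusted p of 7.8e-05 that ranked 21 of 38385 (limma, adjusted p = 0.143). With male WT replicate 2 set to 3.69, the top of the Y-linked readings in females, the difference was 1.81. A higher background level for this probe set would make it smaller.

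Whether the male Noct difference passed depended on single arrays, and with all arrays it did not pass. Without male WT replicate 6, the highest of its group, the difference was 2.11 and passed (limma, adjusted p = 0.0371). Without female KO replicate 2, which enters this comparison through the shared spread alone, it stayed at 1.85 and also passed (limma, adjusted p = 0.0341). Leaving out any other array gave no pass, and the highest adjusted p was 0.485 (limma).

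In females Noct read 6.30 to 8.59 in KO livers, with a median of 6.59, and 5.01 to 6.91 in WT livers, with a median of 6.24. The groups overlapped widely, and 2 of the 6 KO arrays lay above all WT arrays. The difference was 0.77 (SE 0.38, 95% interval -0.01 to 1.54; limma, adjusted p = 0.854), and without female KO replicate 2 it was 0.43 (limma, adjusted p = 0.897). Averaged over the sexes Noct read 1.31 higher in KO (SE 0.27, 2.48-fold, limma, adjusted p = 0.0612). It passed without male KO replicate 1, female WT replicate 4, female WT replicate 5 or male WT replicate 6, at an adjusted p down to 0.0211 (limma). The female effect minus the male effect was -1.09, with a 95% interval of -2.22 to 0.04 (limma, adjusted p = 0.969). Without female KO replicate 2 it was -1.42 and did not pass.

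Noct lies on chromosome 3, by the RefSeq table of GRCm38.p6, and so does P2ry13; Dbp, Tef, Hlf and Nfil3 lie on chromosomes 7, 15, 11 and 13, and both Dec genes on chromosome 6. Of the 10 named genes called in male KO against WT, 9 lie on chromosome 3, which holds 1202 of 24231 placed probe sets. Whether the position of Noct bears on its values was not tested.

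Female WT livers held more Noct signal than male WT livers. The 6 female WT arrays, 5.01 to 6.91, met the 5 male WT arrays, 3.49 to 5.48, only between female replicate 1 and male replicate 6: 5 of 6 female arrays lay above all male ones. With male WT replicate 2 set to the top of the Y-linked readings the difference, females minus males, was 1.68, and a higher background level would make it smaller. As measured, the difference was 1.72 (SE 0.40, 95% interval 0.90 to 2.53), 3.29-fold higher in females (limma, adjusted p = 0.00915). It passed with each of the 23 arrays left out in turn, the highest adjusted p being 0.0432 (limma), and under the 8 other settings run. In KO livers females read 0.63 higher than males (SE 0.38, limma, adjusted p = 0.449), with 6.30 to 8.59 in females and 5.22 to 7.05 in males. Without female KO replicate 2 that difference was 0.30 (limma, adjusted p = 0.749). The change of the sex difference with genotype is the same contrast as the difference of the KO effects above and did not pass.

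**Figure D2:**
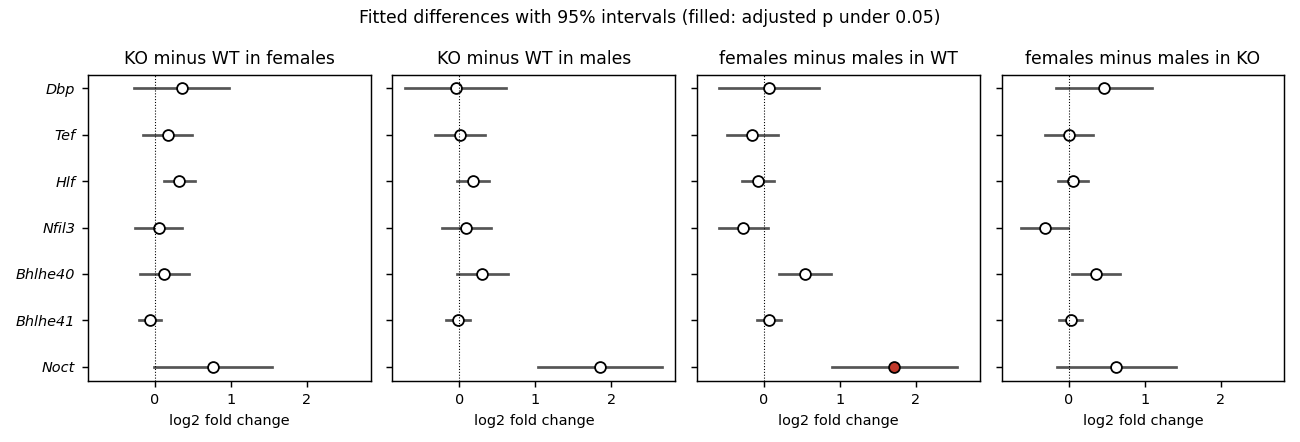
Fitted log2 fold change (x axis) of each gene (y axis) with its 95% interval, for KO minus WT in females and in males and for females minus males in WT and in KO. Filled points passed at an adjusted p under 0.05; the 1 filled point is Noct in WT, at 1.72.

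Among the PAR-bZIP activators, Hlf had the smallest p of KO against WT and did not pass. Hlf lay between 7.004 and 7.29 in female KO livers, with a median of 7.15, and between 6.61 and 7.10 in female WT livers, with a median of 6.82. Of the 6 WT arrays, 5 lay below every KO array, and WT replicate 5 reached into the KO range. The difference was 0.32 (SE 0.10, 95% interval 0.12 to 0.52, 1.25-fold; limma, adjusted p = 0.645). In males Hlf read 6.77 to 7.24 in KO livers and 6.65 to 7.09 in WT livers, a difference of 0.18 (SE 0.10, 95% interval -0.03 to 0.40; limma, adjusted p = 0.832). The average was 0.25 (SE 0.07, limma, adjusted p = 0.472), and Hlf differed between the sexes by -0.08 in WT and 0.06 in KO (limma, adjusted p = 0.769 and 0.845).

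Dbp, the founding PAR-bZIP factor of liver, lay above 3.69, the Y-linked level, in all 23 arrays, but its signal was low. Its lowest value was 3.73 and its mean log2 4.26, below the median probe set at 4.35. Its differences and correlations are limited by that low signal. It read 3.83 to 6.45 in female KO livers, with a median of 4.09, and 3.73 to 5.10 in female WT livers, with a median of 4.08. In males it read 3.81 to 4.79 in KO livers and 3.92 to 4.52 in WT livers. The medians of the female groups were nearly equal, and the mean difference in females, 0.35 (SE 0.31, limma, adjusted p = 0.915), rested on female KO replicate 2: without it the difference was -0.02 (limma, adjusted p = 0.995). In males the difference was -0.05, with a 95% interval of -0.71 to 0.61 (limma, adjusted p = 0.993). Its SD within groups, 0.62, was larger than that of 99.9% of the 7566 probe sets within 0.5 of its mean log2 level. By group, the SD was 1.03 in female KO livers, which include replicate 2. It was 0.48 in female WT, 0.37 in male KO and 0.24 in male WT livers.

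Tef, the third activator, read 5.86 to 6.74 in female KO livers and 5.38 to 6.65 in female WT livers, with medians of 6.16 and 6.09. In males it read 5.85 to 6.58 in KO livers and 5.99 to 6.46 in WT livers, with medians of 6.19 in both groups. The KO differences were 0.17 in females (SE 0.16, 95% interval -0.15 to 0.49) and 0.01 in males (SE 0.16, 95% interval -0.33 to 0.34; limma, adjusted p = 0.918 and 0.999). The sexes differed by -0.15 in WT and 0.01 in KO, with adjusted p of 0.713 and 0.989 (limma).

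Nfil3, the repressor that shares D-boxes with the activators, lay between 7.90 and 8.51 in female KO livers and between 7.83 and 8.88 in female WT livers. It lay between 8.31 and 9.19 in male KO livers and between 8.13 and 8.65 in male WT livers. All 4 ranges overlapped. The KO differences were 0.05 in females and 0.09 in males, with 95% intervals of -0.26 to 0.36 and -0.23 to 0.42 (limma, adjusted p = 0.987 and 0.962). Females minus males was -0.27 in WT and -0.31 in KO (SE 0.16 and 0.15; limma, adjusted p = 0.421 and 0.302).

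Bhlhe40, a Dec repressor, passed neither comparison between the sexes. It read 7.78 to 8.81 in female KO livers, with a median of 8.25, and 7.63 to 8.22 in male KO livers, with a median of 7.80. In WT livers it read 7.68 to 8.58 in females, with a median of 8.07, and 7.21, 7.47, 7.80, 7.31 and 7.97 in male replicates 2 to 6. Of the 6 female WT arrays, 4 lay above all male WT arrays. Females minus males was 0.54 in WT (SE 0.16, 95% interval 0.20 to 0.88, 1.45-fold; limma, adjusted p = 0.0629) and 0.36 in KO (SE 0.16, limma, adjusted p = 0.234). The WT difference passed without female KO replicate 2, female WT replicate 4 or male WT replicate 6, at an adjusted p down to 0.0282 (limma), and with dim probe sets left out (limma, adjusted p = 0.0443). KO minus WT was 0.12 in females and 0.30 in males (SE 0.16 each, limma, adjusted p = 0.948 and 0.825).

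Bhlhe41, the other Dec gene, stayed at background. Its brighter probe set read 3.20 to 3.73 and its other probe set 2.76 to 3.35 over the 23 arrays. The brighter one differed by -0.06 between KO and WT in females and by -0.02 in males, and the other by -0.04 and 0.07 (SE 0.07 to 0.09). Signal this low gives no measure of the transcript, and no fold change is read from it.

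Over the 4 groups at once, the moderated F test gave an adjusted p of 0.000628 for Noct, 0.0401 for Bhlhe40 and 0.112 for Hlf (limma). The Bhlhe40 call ended with any of 13 arrays left out, the highest adjusted p being 0.127 without male WT replicate 2 (limma). Those arrays were replicates 1, 2, 4 and 5 of female KO, 5 and 6 of female WT, 1, 4, 5 and 6 of male KO and 2, 3 and 5 of male WT. Without male KO replicate 5 the F test called Hlf beside Noct. The one-way test that the design text names, at an unadjusted p under 0.05 with a change of over 20%, took in 3 of the 7 members (Noct, Bhlhe40 and Hlf) and 11.6% of all probe sets. After Benjamini-Hochberg adjustment it took in Noct alone of the 7, at an adjusted p of 0.0109, and 5.01% of all probe sets.

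Part of the spread within groups ran along with core clock genes. Each member was set against Arntl (BMAL1, the activator of the loop), Nr1d1 (REV-ERB alpha, its repressor) and Per2, on log2 values with group means taken away, by two-sided permutation tests that shuffled arrays within groups. Of these 21 relations over 23 arrays, 5 passed after Benjamini-Hochberg adjustment of Pearson's r and 2 of Spearman's rho. Noct varied with Per2: Pearson's r was 0.78 (permutation p = 6e-05, adjusted 0.00126) and Spearman's rho 0.82 (permutation p = 3e-05, adjusted 0.00063). Without the 2 arrays farthest from the Noct median r was 0.74, and it was 0.86 in the 12 female arrays (permutation test, adjusted p = 0.0269) and 0.78 in the 11 male arrays (permutation test, adjusted p = 0.0671). Here and below, values without the 2 farthest arrays keep the group means of all 23 arrays. The 2 arrays left out thus still bear on those r through the group means. On log2 values without centring, which also hold the differences between groups, r was 0.43 and did not pass (permutation test, adjusted p = 0.124). Hlf followed Nr1d1 at r = 0.66 (permutation p = 0.00306, adjusted 0.0184) and rho = 0.67 (permutation p = 0.0026, adjusted 0.0273), with r = 0.43 in females and 0.89 in males. Without the 2 arrays farthest from the Hlf median r was 0.53 and did not pass (permutation test, adjusted p = 0.231).

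Dbp ran against Arntl at r = -0.77 (permutation p = 0.00151, adjusted 0.0158) and rho = -0.58 (permutation p = 0.00938, adjusted 0.0657). Without the 2 farthest arrays, which still entered the group means, r was -0.49 (permutation p = 0.0531, adjusted 0.251). In females r was -0.90 and in males 0.06, so the relation was seen in the female arrays and did not pass without those 2 arrays. Dbp and Nr1d1 gave r = 0.54 (permutation p = 0.0035, adjusted 0.0184) and rho = 0.45 (permutation p = 0.0304, adjusted 0.119), with r = 0.61 in females and 0.55 in males, and 0.39 without the 2 farthest arrays, where it did not pass (permutation p = 0.0598, adjusted 0.251). Nfil3 followed Arntl at r = 0.56 (permutation p = 0.00674, adjusted 0.0283) and rho = 0.48 (permutation p = 0.034, adjusted 0.119), with r = 0.74 in females and 0.17 in males. Without the 2 arrays farthest from the Nfil3 median r was 0.51 and did not pass (permutation test, adjusted p = 0.231). Whether these relations differ between the sexes was not tested.

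**Figure D3:**
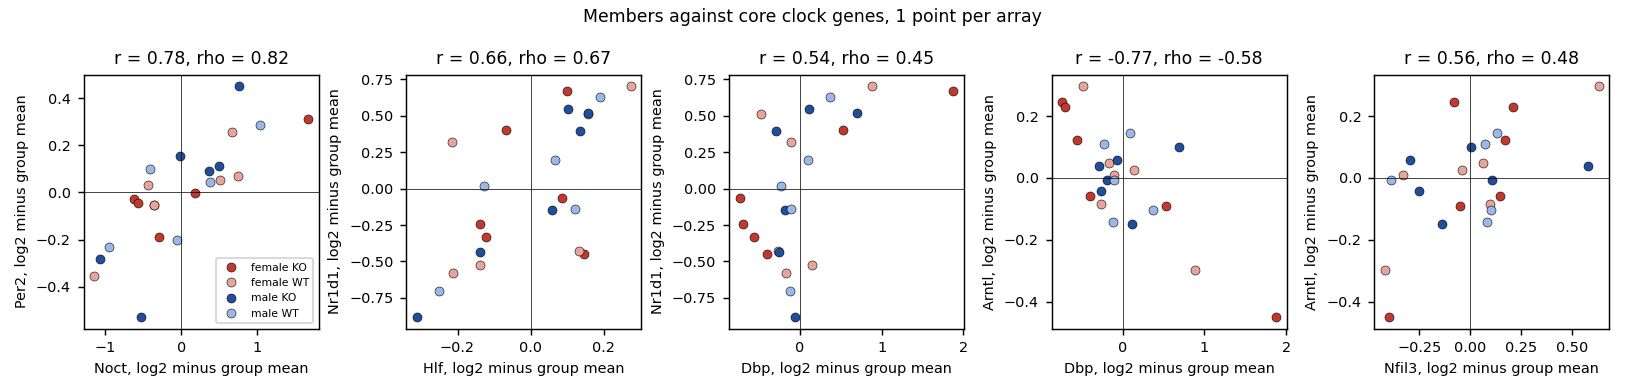
Log2 intensity minus the group mean of a member (x axis) against that of a core clock gene (y axis), 1 point per array, coloured by group, for the 5 relations that passed. Noct and Per2 have r = 0.78 over the 23 arrays, with female KO replicate 2 the farthest point on the Noct axis, and in the Dbp and Arntl panel the far lower right point is female KO replicate 2.

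Among the members themselves, 0 of 21 pairs passed after adjustment over the pairs. The closest were Dbp with Tef, at r = 0.59 (permutation p = 0.00595, adjusted 0.105) and rho = 0.44 (permutation p = 0.0529, adjusted 0.251), and Dbp with Nfil3, at r = -0.50 (permutation p = 0.01, adjusted 0.105) and rho = -0.60 (permutation p = 0.00608, adjusted 0.0702). Without the 2 arrays farthest from the Dbp median, which still entered the group means, these r were 0.29 and -0.28. In the 12 female arrays Dbp and Nfil3 gave r = -0.68 (permutation p = 0.00187, adjusted 0.0393), and in the 11 male arrays -0.06.

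Female KO replicate 2 stood apart in several of these genes at once. Dbp read 6.45 in it, against 3.83 to 5.10 in the other 5 female KO arrays. Tef read 6.74 (against 5.86 to 6.35), Bhlhe40 8.81 (against 7.78 to 8.37) and Noct 8.59 (against 6.30 to 7.11). In the same array Nfil3 read 7.90, below the other 5 at 8.22 to 8.51, and Arntl 7.43, below their 7.79 to 8.13. Nr1d1 at 7.70 and Per2 at 5.52 were the highest of the group, while Hlf at 7.24 and Bhlhe41 at 3.53 lay inside its range.

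The genes most like each member were sought among 13642 brighter probe sets with 1 symbol, by Pearson's r of group-centred log2 values over the 23 arrays, as a description. For Noct they were Coq10b (r = 0.85), Ifrd1 (0.79) and Per2 (0.78). For Dbp they were Ppp1r3g (0.85), Tsr2 (0.75) and Lpin2 (0.71), for Tef Tpmt (0.78), Amy1 (0.77) and Eva1a (0.74), and for Hlf Amotl2 (0.88), Alkbh5 (0.75) and Mmd (0.74). For Nfil3 they were Ppard (0.85), Rela (0.84) and Pnrc1 (0.83), for Bhlhe40 Junb (0.73), Anapc7 (0.71) and Slc44a3 (0.67), and for Bhlhe41, which lay at background, Edaradd (0.80), Fnta (0.78) and Stox2 (0.75). The same animals, arrays and normalization underlie both sides of each r.

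The rest of the clock was described by a list of 18 core genes, of which 16 were measured. In KO against WT 0 of the 16 passed in females, in males or in the average, with medians of 0.02, 0.02 and 0.04 on the log2 scale. Nr1d1 read 0.66 higher in female KO livers (SE 0.26, limma, adjusted p = 0.836) and Cry2, a repressor of the loop, 0.26 higher (SE 0.09, limma, adjusted p = 0.818). In male KO livers Npas2, a partner of BMAL1, read -0.26 (SE 0.11, limma, adjusted p = 0.75). Clock and Csnk1e each read 0.20 higher there (SE 0.10 and 0.08, limma, adjusted p = 0.812 and 0.719). Between the sexes 0 of the 16 passed in WT or in KO. Of these 16 genes and the 7 members, Noct was the one called between female and male WT livers.

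Liver targets of the PAR-bZIP factors and Nfil3 were listed as 13 genes, of which 9 were measured. None passed in KO against WT, with medians of 0.01 in females and 0.00 in males. Cyp7a1, the rate-limiting enzyme of bile acid synthesis, read 0.53 in females and -0.75 in males (SE 0.33 and 0.34; limma, adjusted p = 0.886 and 0.794). Between the sexes 3 of 9 were higher in females in WT and 4 of 9 in KO, with medians of 0.37 and 0.60. Of all probe sets, 2.54% were called higher in female WT livers, and 4.85% were called in either direction in KO. The list was chosen with earlier results of these data known, so its counts are no test of the targets as a set. The drug-metabolizing monooxygenase genes Cyp2b9 and Cyp2b10 were 8.35 and 3.49 higher in female WT livers. The nuclear receptor gene Nr1i3 was 0.54 higher there (SE 0.09, limma, adjusted p = 0.00051). Dbp, Tef, Hlf and Nfil3 themselves passed neither comparison between the sexes.

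Beside the sex difference of Noct, markers of other liver cells differed too. Of 5 Kupffer cell markers, 3 were higher in female than in male WT livers (limma), and their mean log2 level lay between 8.22 and 8.63 in female WT arrays and between 7.72 and 8.10 in male WT arrays. Of 5 markers of sinusoidal endothelium 1 was higher in females, of 4 cholangiocyte markers 1 was lower, and of 4 lymphocyte markers 1 was higher. No hepatocyte, stellate cell, neutrophil, muscle or pancreas marker passed between the sexes in WT. Of all probe sets, 4.25% were called in this comparison and 2.54% were called higher in females. The red cell list had 1 measured gene, Alas2, which read -2.72 in females against males in WT (SE 0.10, limma, adjusted p = 1.38e-17). In KO against WT no marker of the 10 cell type lists passed in either sex. The part of these markers in the Noct difference was not tested.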

How the data were processed

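Liver RNA of 23 mice was measured on arrays, after amplification to biotin-labelled cRNA per the labels' protocols. Each probe set has an intensity on a linear scale, deposited by the authors after RMA, per the submitters' processing notes, whose settings were not given in the sources used. Values ran from 4.12 to 29673.9, with array medians of 19.5 to 21.1, and were converted to log2 with no further scaling. Groups and replicate numbers come from the sample titles. Labels do not name cultures, litters or batches, so no batch could be tested.

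Probe sets were named from the repository's platform annotation, with symbols updated by Entrez ID through a RefSeq table of GRCm38.p6 (24237 of 24478 matched); 65 had several symbols and 13842 are unnamed here. Group means were compared with limma 3.58.1 in R 4.3.3 (19 residual and 7.61 prior degrees of freedom), which was tested on simulated data. Correlations used 100000 permutations in Python 3.11.15, with figures from matplotlib 3.10.9. Errors beside fold changes are standard errors, those beside means SDs. All members and their probe sets are named, up to 3 genes most like each member (a mean log2 above the array median of 4.35, no clone names), and up to 3 genes of smallest p per list. The members and lists were chosen with earlier results of these data known. Fits were repeated without dim probe sets, with quantile normalization, equal medians, array weights, a variance trend on intensity (robust), replicate numbers as a block, the compared groups alone, averaged probe sets per gene, the design text's test, and each array left out; for correlations, no centring, rank correlation, each sex alone and leaving out 2 arrays. Those 2 arrays were left out after centring, with no new group means taken.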

Additional observations from a re-analysis of the deposited data

Results flagged for a closer look

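With 28 combinations of gene and group examined, 2 had an array that lay far from the rest of its group, where chance flags about 1 in 20. Noct in female KO replicate 2 read 8.59 (log2), against 7.11 in the next highest array of the group, a gap of 0.65 of the group's range. Nfil3 in male WT replicate 4 read 8.13, against 8.59 in the next lowest array, a gap of 0.89 of the range. No explanation was tested for either.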

How the results depend on the processing

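The counts of members called were the same under every alternative for KO against WT in females, the difference of the KO effects and females against males in KO, at 0 each. With an array left out, the count lay between 0 and 1 for KO against WT in males and in the average, between 1 and 2 for females against males in WT, and between 1 and 2 for the F test. Of the other settings, the average gave 1 member (Noct, limma, adjusted p = 0.0339) with the replicate number as a block, and females against males in WT gave 2 with dim probe sets left out. The F test gave 1 (Noct) with quantile normalization, array weights, a robust variance trend, the replicate block and the adjusted plain test. The block changed no other call. With group means taken away, same-numbered arrays of different groups correlated at -0.17 to 0.21 over 33 pairs, 3 of them above 0.1. Arrays of different groups with other numbers correlated at -0.27 to 0.26 over 165 pairs, 28 of them above 0.1. These correlations cannot show whether the numbers pair the animals. Of the 21 member pairs, 1 passed without centring and 1 in females alone. Of the 21 relations with core clock genes, 2 passed by Spearman's rho, 3 in females alone, 1 in males alone and 1 (Noct with Per2) without the 2 farthest arrays. Without centring 6 passed: Noct with Per2 did not (r = 0.43, permutation test, adjusted p = 0.124), while Tef with Nr1d1 and Hlf with Per2 did. The cause of these shifts was not tested; subsets hold fewer arrays. Over single members, 1432 values kept direction and side of the threshold, 18 lost a call, 13 gained one, 35 uncalled values changed sign and 0 called values reversed. Signal at background limits what the arrays show for Bhlhe41. Low signal also limits Dbp, with a mean log2 of 4.26, and Noct in male WT livers, at 3.49 to 5.48.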

Other observations

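Genes induced by glucocorticoids and by fasting or feeding were listed because hormones and meals set the phase of liver clocks. In KO against WT 0 of 11 measured glucocorticoid-induced genes passed, with medians of 0.05 in females and 0.14 in males on the log2 scale. In male KO livers Sgk1, a serum and glucocorticoid regulated kinase, read 0.54 higher (SE 0.15, limma, adjusted p = 0.411). In female KO livers Klf9 had the smallest p of the list and read -0.32 (SE 0.10, limma, adjusted p = 0.645). The KO differences were positive in 8 of the 11 genes in females and in 8 in males. Between the sexes 3 of the 11 were higher in female WT livers and 3 in female KO livers: in WT the metallothionein gene Mt2 by 2.91, Fkbp5, a co-chaperone of the glucocorticoid receptor, by 1.04 and Lcn2 by 1.55 (limma, adjusted p = 7.17e-06, 0.00439 and 0.0245). Of 9 measured fasting and feeding genes, 0 passed in KO against WT and 2 were higher in female WT livers, Fasn, the fatty acid synthase, by 0.79 and the coactivator gene Ppargc1a by 0.46 (limma, adjusted p = 0.00221 and 0.00482). Beside these counts, 2.54% of all probe sets were called higher in female WT livers, and 4.85% were called in either direction between the sexes in KO. These lists too were chosen with earlier results of these data known.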
